A study of Mus musculus with 10 samples.

Results

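The RNA level of 6 genes tied to androgen action in the mouse kidney was followed in kidneys that lacked Ehhadh. They were taken from the joined count matrix by symbol: Kap, Odc1, Azgp1, Srd5a1, Srd5a2 and Prlr, 6 of 24062 genes in the matrix. All 6 passed the filter on low counts, as did 15547 genes in all. None of the 6 encodes a receptor for androgens, so the set covers responsive genes, steroid 5α-reductases and the prolactin receptor, and not the androgen receptor itself.

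Whole-kidney polyadenylated RNA was sequenced from 10 mice, 1 library per animal. There were 4 libraries from Ehhadh knockout mice (KO) of the strain C57BL/6N, 1 from a wild-type DBA_2J mouse, 1 from a wild-type 129S2_SvPasCrl mouse and 4 from wild-type C57BL/6N mice, which are called WT below. The Ehhadh product, L-bifunctional enzyme, works in the breakdown of fatty acids in peroxisomes. The series' design text gives the KO and WT animals as adult males; ages, litters and the structure of the deleted allele are not given in the sources used here. Each strain is 1 animal, so nothing said of DBA_2J or 129S2_SvPasCrl has a replicate check. All libraries were counted on the same genome build, mm10, and any effect of strain differences in sequence on the counts was not tested.

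In the mouse kidney, testosterone enters proximal tubule cells and acts there through a nuclear receptor that binds DNA, and the kidney of the male differs from that of the female in many transporters and enzymes as a result. Steroid 5α-reductases turn testosterone into dihydrotestosterone, which binds the receptor more tightly. Kap and Odc1 are textbook androgen-induced kidney genes of the mouse, while prolactin is a pituitary hormone that modifies the response of several androgen target tissues.

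Total counts ran from 41.49 to 52.3 M (mega, a unit of counts) in KO libraries, 57.25 M in DBA_2J, 51.19 M in 129S2_SvPasCrl and from 19.79 to 35.99 M in WT libraries. The KO libraries were all deeper than the WT libraries (two-sided exact permutation test, p = 0.02857, the lowest value this design can reach). Ehhadh averaged 258 ± 64.1 CPM over the KO libraries, 796 CPM in DBA_2J, 788 CPM in 129S2_SvPasCrl and 2475 ± 630 CPM over the WT libraries (SD, n = 4 for KO and WT). CPM is counts per M of the library total after TMM scaling. The Y-linked genes Ddx3y, Kdm5d, Eif2s3y and Uty were read in all 10 libraries. Some sample titles begin with the letter E and others do not, with 2 KO and 2 WT libraries of each form; what the form marks is not in the labels.

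Upstream DNA is shown for the 4 genes whose RNA was lower in KO kidneys, since the letters before the start of a gene are where androgen-responsive elements are often sought. Sequences are from RefSeq (GRCm38.p6), are printed 5′ to 3′ on the strand of the gene, and end at the base before the start of the gene or, for Prlr, before its second annotated start. The Srd5a2 stretch is shorter because the first exon of the count annotation reaches past the RefSeq start. Motifs were searched in windows of 300 bases, part of which lies after the start and is not shown. Capitals mark a match to one of the searched motifs: the hexamer TGTTCT or its reverse complement AGAACA, the repeated core of the element bound by steroid receptors, or TATAAA, the TATA box, on the strand of the gene. These motifs do not overlap each other in the stretches shown.

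Kap, chr6:133853668-133853917, minus strand: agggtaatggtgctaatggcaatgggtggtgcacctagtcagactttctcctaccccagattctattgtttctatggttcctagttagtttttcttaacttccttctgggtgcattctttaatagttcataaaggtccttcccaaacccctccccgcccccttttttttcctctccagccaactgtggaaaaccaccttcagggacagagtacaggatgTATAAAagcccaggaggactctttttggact
Azgp1, chr5:137981271-137981520, plus strand: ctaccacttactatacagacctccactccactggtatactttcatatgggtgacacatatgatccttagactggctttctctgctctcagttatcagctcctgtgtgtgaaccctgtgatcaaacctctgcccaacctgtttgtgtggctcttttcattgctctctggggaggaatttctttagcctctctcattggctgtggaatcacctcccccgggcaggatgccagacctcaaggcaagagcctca
Srd5a2, chr17:74047917-74048110, minus strand: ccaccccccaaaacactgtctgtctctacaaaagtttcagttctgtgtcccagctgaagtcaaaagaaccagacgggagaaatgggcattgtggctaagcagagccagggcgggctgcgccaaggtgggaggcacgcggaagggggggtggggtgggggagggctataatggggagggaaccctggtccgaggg
Prlr, second of 3 annotated starts, chr15:10223656-10223905, plus strand: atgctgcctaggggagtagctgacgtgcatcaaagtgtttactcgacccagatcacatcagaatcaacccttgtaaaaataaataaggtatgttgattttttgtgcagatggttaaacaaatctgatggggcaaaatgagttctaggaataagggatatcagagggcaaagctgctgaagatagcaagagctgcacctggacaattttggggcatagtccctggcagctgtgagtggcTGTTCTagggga

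The Kap stretch holds 1 TATAAA, which begins 31 bases before the start. The Prlr stretch holds 1 TGTTCT, which begins 12 bases before that start. Azgp1 has a hexamer 15 bases past its start, inside the first exon, and the stretches of Azgp1 and Srd5a2 that are printed hold neither motif. The windows of Odc1 and Srd5a1, and the other windows of Prlr, hold neither. The Prlr stretch shown is thus from its only window with a match, and which start is used in the kidney was not tested. Among all 32851 promoter windows of 300 bases, 18.97% hold the hexamer on either strand and 8.319% hold TATAAA. A match of this kind describes letters in a window and is not evidence of binding.

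In KO against WT kidneys, 4 of the 6 genes were called lower at an adjusted p under 0.05 and none was called higher. Azgp1, Srd5a2 and Prlr fell by more than 1 on the log2 scale, while Kap, which gave the most RNA of the set, fell by 0.42. Odc1 and Srd5a1 did not pass the test. Of the 15547 genes tested, 11.0% were called in either direction, 6.32% higher and 4.68% lower. The same 4 genes were the ones whose KO and WT libraries did not overlap, against 17.7% of all genes in either direction and 8.18% of all genes with KO lower. DESeq2 and limma-voom also called 0 of the 6 higher, and 0 had an unadjusted p under 0.05 in edgeR with KO higher. The 6 genes were chosen with earlier results of these data known, so the shares over all genes are a background and not an independent check.

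**Figure D1:**
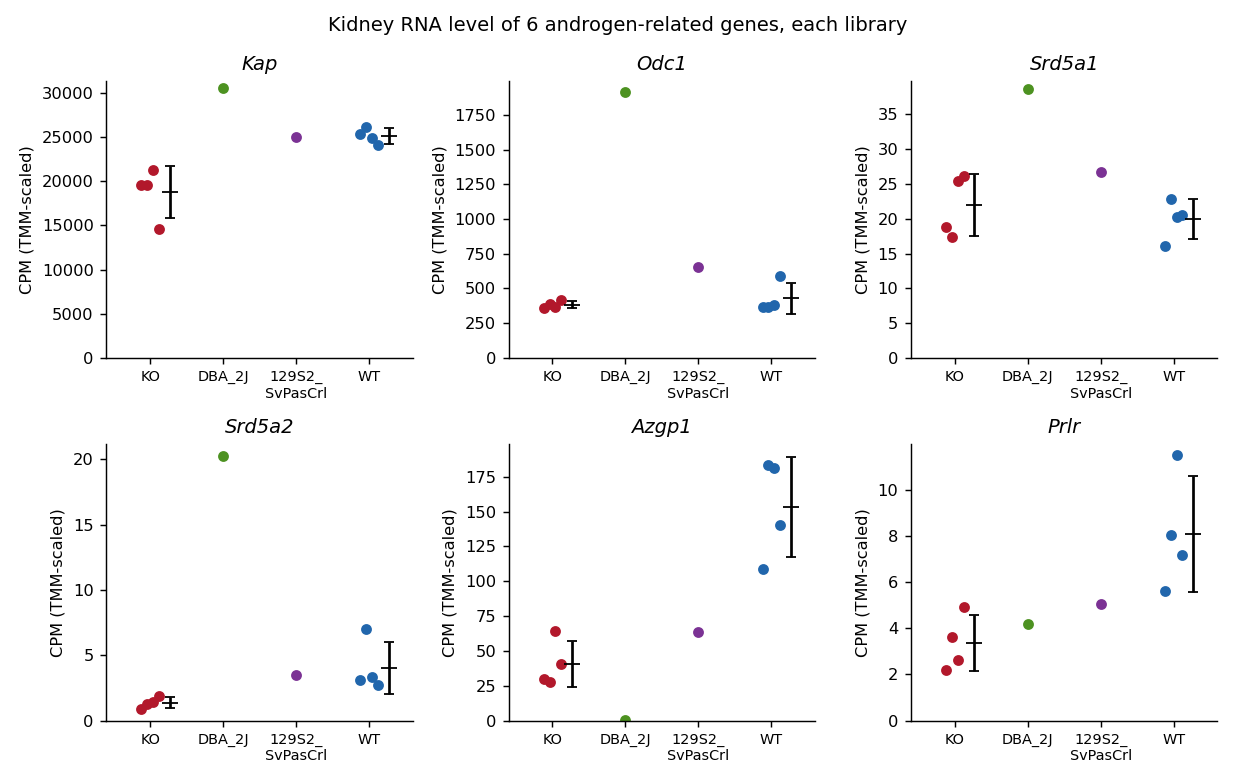
RNA level of each of the 6 genes, in CPM with TMM scaling, by library (points: KO, DBA_2J, 129S2_SvPasCrl, WT); bars give the mean ± SD of the 4 KO and the 4 WT libraries. KO points lie below all WT points for Kap, Srd5a2, Azgp1 and Prlr, and DBA_2J stands highest for Kap, Odc1, Srd5a1 and Srd5a2 and lowest for Azgp1.

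Kap encodes kidney androgen-regulated protein, an abundant product of proximal tubule cells. It lies at chr6:133849855-133853667 on the minus strand (mm10), in 4 exons of 608 bases. Kap was at 19613, 19628, 21288 and 14606 CPM in KO libraries 1 to 4, and at 25380, 26167, 24852 and 24092 CPM in WT libraries 1 to 4. The highest KO library was below the lowest WT library, and KO library 4 was lowest of all. Kap was thus 1.33-fold lower in KO kidneys, at 18784 ± 2894 CPM against 25123 ± 874 CPM in WT (SD, n = 4 each; log2 fold change −0.42, SE 0.11, adjusted p = 0.0295 in the edgeR quasi-likelihood test with Benjamini-Hochberg adjustment). Kap took 1.475% to 2.19% of all counts in KO libraries and 2.412% to 2.602% in WT libraries (p = 0.02857 in the exact permutation test). The call on Kap rests on most of its libraries: it was lost without KO 1 (adjusted p = 0.0586), KO 2 (0.0565), WT 1 (0.0708), WT 2 (0.074) or WT 3 (0.072). The log2 fold change stayed between −0.48 and −0.31 in all 8 of those leave-one-out fits.

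In the wild-type strains Kap was at 30548 CPM in DBA_2J and 25034 CPM in 129S2_SvPasCrl. DBA_2J was above every WT library (log2 difference 0.28), and 129S2_SvPasCrl was within their range (log2 difference 0.00 after rounding). In DBA_2J the gene took 2.90% of all counts (95% Wilson score interval 2.89% to 2.90%, counting error only).

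Odc1 encodes ornithine decarboxylase, the first enzyme of polyamine synthesis. It lies at chr12:17544873-17551502 on the plus strand, in 12 exons of 2547 bases. Odc1 was at 357, 386, 368 and 414 CPM in KO libraries 1 to 4, and at 366, 369, 383 and 592 CPM in WT libraries 1 to 4. The groups overlapped, and WT library 4 stood above the other 7. The difference was not called (381 ± 24.96 CPM in KO kidneys and 428 ± 110 CPM in WT kidneys, SD, n = 4 each; log2 fold change −0.16, SE 0.14, adjusted p = 0.514 in edgeR). Without WT library 4 the log2 fold change was 0.04, with the sign turned. DBA_2J stood far apart at 1914 CPM, 4.48-fold above the WT mean (log2 difference 2.19), and 129S2_SvPasCrl was at 652 CPM (log2 difference 0.64), above all 8 C57BL/6N libraries.

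Azgp1 encodes zinc-α2-glycoprotein, a secreted protein of the MHC class I fold that is linked to lipid mobilisation. It lies at chr5:137981521-137990232 on the plus strand, in 4 exons of 1314 bases. Azgp1 was at 30.0, 27.5, 64.2 and 40.6 CPM in KO libraries 1 to 4, and at 109, 183, 181 and 141 CPM in WT libraries 1 to 4. Even the highest KO library, number 3, was well below the lowest WT library, number 1. Azgp1 was 3.78-fold lower in KO kidneys, at 40.6 ± 16.7 CPM against 153 ± 35.8 CPM in WT (SD, n = 4 each; log2 fold change −1.92, SE 0.25, adjusted p = 0.000956 in edgeR), the 12th lowest fold change of all genes tested. Leaving out each library in turn kept the call in 8 of 8 fits, with log2 fold changes of −2.23 to −1.77.

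The strain libraries lay far apart for this gene. Azgp1 was at 0.645 CPM in DBA_2J, from 35 reads (95% exact Poisson interval 0.449 to 0.897 CPM, counting error only), and at 63.6 CPM in 129S2_SvPasCrl. DBA_2J was thus 238-fold below the WT mean, a log2 difference of −7.76, the lowest of all 15547 genes in that strain. The 129S2_SvPasCrl library was 2.41-fold below the WT mean (log2 difference −1.24) and lay outside the WT range, at the level of KO library 3.

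**Figure D2:**
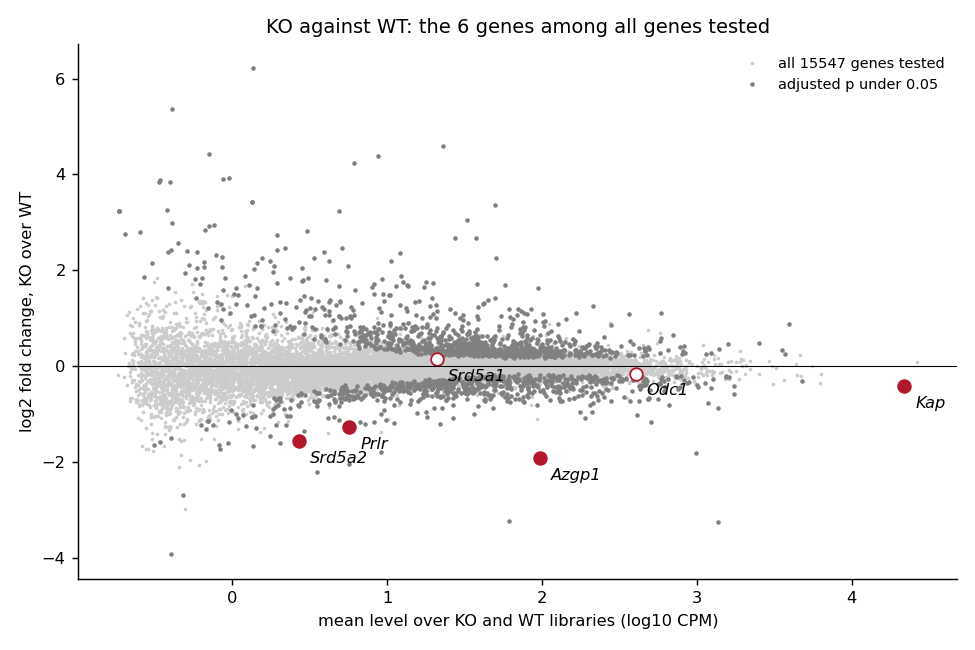
Log2 fold change of KO over WT (vertical axis) against mean level in log10 CPM (horizontal axis) for all 15547 genes tested; grey shades part genes called at an adjusted p under 0.05 from the rest, and red points are the 6 genes, filled where called. Azgp1, Srd5a2 and Prlr lie at the low edge of the cloud, Kap is among the most abundant genes, and Odc1 and Srd5a1 are near 0.

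Srd5a1 and Srd5a2 encode the type 1 and type 2 steroid 5α-reductases, which make dihydrotestosterone from testosterone. Srd5a1 lies at chr13:69573449-69611463 on the minus strand, in 5 exons of 2665 bases. Srd5a1 was at 18.8, 17.4, 25.4 and 26.2 CPM in KO libraries 1 to 4, and at 16.1, 22.9, 20.3 and 20.5 CPM in WT libraries 1 to 4. The groups overlapped, and no difference was called (21.9 ± 4.48 CPM in KO kidneys and 19.96 ± 2.84 CPM in WT kidneys, SD, n = 4 each; log2 fold change 0.14, SE 0.14, adjusted p = 0.607 in edgeR). DBA_2J had 38.7 CPM, 1.94-fold above the WT mean, and 129S2_SvPasCrl had 26.7 CPM, above every C57BL/6N library.

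Srd5a2 moved differently. It lies at chr17:74017706-74047916 on the minus strand, in 5 exons of 854 bases. Srd5a2 was at 0.867, 1.26, 1.44 and 1.87 CPM in KO libraries 1 to 4, from 44, 53, 67 and 99 reads. WT libraries 1 to 4 had 3.12, 6.98, 3.30 and 2.75 CPM, from 61, 221, 120 and 87 reads. Every KO library was below every WT library, and WT library 2 stood above its group. Srd5a2 was 2.96-fold lower in KO kidneys (1.36 ± 0.418 CPM against 4.04 ± 1.97 CPM in WT, SD, n = 4 each; log2 fold change −1.57, SE 0.33, adjusted p = 0.0124 in edgeR), the 29th lowest fold change of all. Without WT library 2 the log2 fold change was −1.15 (adjusted p = 0.0256 in edgeR), and the call was kept in 8 of 8 leave-one-out fits.

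The DBA_2J library had the most Srd5a2 RNA, 20.2 CPM from 1097 reads, 5.01-fold above the WT mean (log2 difference 2.41). The 129S2_SvPasCrl library had 3.501 CPM, within the WT range. The balance of the reductases can be read per exon length: KO kidneys had 1.59 CPM per kb of Srd5a2 and 8.23 CPM per kb of Srd5a1, DBA_2J had 23.7 and 14.5, 129S2_SvPasCrl had 4.10 and 10.03, and WT had 4.73 and 7.49. Srd5a2 was thus the more abundant of the pair per length in DBA_2J alone among these groups.

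Prlr encodes the prolactin receptor, a cytokine receptor that signals through Jak2 and Stat5. It lies at chr15:10177238-10349180 on the plus strand, with 29 exon entries of 13415 bases in all. Prlr was at 2.21, 3.62, 2.63 and 4.92 CPM in KO libraries 1 to 4, from 112, 152, 122 and 260 reads. WT libraries 1 to 4 had 5.62, 8.05, 11.5 and 7.15 CPM, from 110, 255, 418 and 226 reads. The groups came close, between KO library 4 and WT library 1, but did not overlap. Prlr was 2.42-fold lower in KO kidneys (3.34 ± 1.21 CPM against 8.08 ± 2.50 CPM in WT, SD, n = 4 each; log2 fold change −1.28, SE 0.27, adjusted p = 0.0123 in edgeR), a call kept in 8 of 8 leave-one-out fits. DBA_2J had 4.18 CPM and 129S2_SvPasCrl 5.06 CPM, both below all WT libraries (log2 differences −0.89 and −0.62).

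Levels of different genes are comparable only per length. In KO kidneys the order of exon-length levels was Kap (30894 CPM per kb), Odc1 (150), Azgp1 (30.9), Srd5a1 (8.23), Srd5a2 (1.59) and Prlr (0.249). WT kidneys had the same order, with Kap at 41320, Odc1 at 168, Azgp1 at 117, Srd5a1 at 7.49, Srd5a2 at 4.73 and Prlr at 0.602 CPM per kb. The length of Prlr joins 29 exon entries (13415 bases), so its level per kb may be too low. Before division by length, Prlr was above Srd5a2 (3.34 against 1.36 CPM in KO kidneys, 8.08 against 4.04 CPM in WT kidneys). No member shares exon bases with another gene in the count annotation. In whole-kidney RNA, fewer cells of a type and less RNA per cell cannot be told apart.

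Markers of kidney and other cell types were summed beside these results. The sum of 17 proximal tubule markers was 17340 to 20469 CPM in KO libraries and 20917 to 21986 CPM in WT libraries (exact two-sided permutation p = 0.0286), with 4 of 17 called lower, 0 higher, none at 0 and a median log2 fold change of −0.11; Slc7a13, also known to be raised in males, is among them. The sum of 8 markers of other nephron segments was 2890 to 4139 CPM in KO and 3778 to 4254 CPM in WT (p = 0.0857 in the same permutation test), with 5 of 8 called lower. Immune markers (7 genes) summed to 55.8 to 63.0 CPM in KO and 71.8 to 75.4 CPM in WT (permutation p = 0.0286), a sum carried mostly by Csf1r, which was called lower (36.7 ± 4.07 CPM in KO kidneys against 57.3 ± 1.13 CPM in WT kidneys, SD, n = 4 each). The immune genes did not move together: Cd14 was called higher (log2 fold change 0.78), 5 of 7 were above 0 and the median log2 fold change was 0.33. Of 10 tubular injury markers 7 were called higher and 0 lower, with 8 above 0 and 2 below. For all these lists, the shares over all genes tested were 6.32% called higher and 4.68% lower. The injury sum was 1228 to 2068 CPM in KO and 980 to 1331 CPM in WT (permutation p = 0.143). Spp1 was its largest part (861 ± 307 CPM in KO kidneys, 551 ± 55.3 CPM in WT kidneys, SD, n = 4 each). Less abundant markers differed more, such as Havcr1 (log2 fold change 4.60) and Sox9 (4.23), both with adjusted p = 2.6e-05 in edgeR. Havcr1 was also high in the wild-type 129S2_SvPasCrl library, at 62.8 CPM beside means of 44.5 CPM in KO and 1.80 CPM in WT. In DBA_2J it was at 4.07 CPM. Sox9 was at 0.831 CPM in 129S2_SvPasCrl and 0.479 CPM in DBA_2J, beside means of 11.6 CPM in KO and 0.602 CPM in WT. Adipocyte markers (8 genes) summed to 88.8 to 209 CPM in KO and 87.5 to 252 CPM in WT (permutation p = 0.8), with none called. Their sum was 46.5 CPM in DBA_2J and 52.4 CPM in 129S2_SvPasCrl, below every C57BL/6N library. Adrenal markers (8 genes), a source of steroid enzyme RNA, summed to 3.86 to 7.48 CPM in KO and 5.14 to 6.53 CPM in WT. Star gave most of this sum. Among the C57BL/6N libraries, KO 2 held the most reads of Cyp21a1 (34), Hsd3b1 (20), Cyp11b1 (19) and Cyp11a1 (12). Cyp11b2 was at 0 in all 10 libraries. The part of these differences in the values of the 6 genes was not tested.

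Within the forms of the sample titles, the log2 differences of KO minus WT were −0.47 with a leading E and −0.39 without for Kap, −1.64 and −2.29 for Azgp1, and −1.32 and −1.24 for Prlr. For Srd5a2 they were −0.86 with a leading E and −2.11 without. For the uncalled genes they were −0.29 and 0.01 for Odc1, and 0.34 and −0.09 for Srd5a1. The interaction of form and genotype was called for 0 of all genes tested by edgeR, with 1004 genes at an unadjusted p under 0.05. For Srd5a2 the interaction was 1.40 on the log2 scale (edgeR quasi-likelihood test, adjusted p = 0.741). Fitted on the 2 KO and 2 WT libraries with a leading E alone, only Azgp1 kept its call among the 6 genes (adjusted p = 0.0484), while Kap (0.297), Srd5a2 (0.214) and Prlr (0.163) lost theirs. In the fit on the 2 KO and 2 WT libraries without a leading E, Kap, Azgp1, Srd5a2 and Prlr all kept their calls.

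The authors' deposited table of log2 values lists all 6 genes among its 13645. In the authors' deposited table KO minus WT was −0.43 for Kap, −0.13 for Odc1, −1.96 for Azgp1, 0.13 for Srd5a1, −1.51 for Srd5a2 and −1.29 for Prlr.

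The other genes of male kidney that passed the test were also lower in KO. Of 15 genes known to be higher in the male mouse kidney, 5 were called lower in KO, 10 were not called and 0 were called higher (by edgeR, DESeq2 and limma-voom alike), where 4.68% of all genes tested were called lower and 6.32% higher. An unadjusted p under 0.05 was reached by 8 of the 15, all with KO lower, and by 26.0% of all genes tested, 12.4% of all with KO lower. Their median log2 fold change was −0.30, against −0.01 over all genes tested, and 13 of 15 were below 0, as were 51.1% of all. DESeq2 called 7 lower and limma-voom 5. The list was chosen with earlier results of these data known, so its distance from the shares over all genes is not an independent check.

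Slc7a13, an aspartate and glutamate transporter of the late proximal tubule, was at 244, 255, 300 and 292 CPM in KO libraries 1 to 4 and at 482, 457, 544 and 725 CPM in WT libraries 1 to 4. It was 2.02-fold lower in KO (log2 fold change −1.01, adjusted p = 0.000902 in edgeR), with no overlap. Cyp2e1, a cytochrome P450 that oxidises small molecules, was 1.84-fold lower (966 ± 234 CPM in KO kidneys, 1779 ± 274 CPM in WT kidneys, SD, n = 4 each; adjusted p = 0.00507), and the organic anion transporter gene Slc22a30 was 1.60-fold lower (124 ± 18.7 CPM in KO kidneys, 199 ± 26.8 CPM in WT kidneys; adjusted p = 0.00386). These calls held in every leave-one-out fit.

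Slco1a1, an organic anion transporter (log2 fold change −0.74, adjusted p = 0.0292, with overlapping groups), and Acsm3, a medium-chain acyl-CoA synthetase (−0.53, adjusted p = 0.0285), were also called lower. The call on Slco1a1 was lost without KO 1, KO 2, KO 4, WT 1 or WT 2, and that on Acsm3 without KO 1, KO 4, WT 1 or WT 2 (adjusted p up to 0.0826 in edgeR). Acsm3 shares 743 exon bases with Eri2, so its counts are uncertain. The count of 5 fell to 3 without KO 1, KO 4, WT 1 or WT 2, and to 1, Slc7a13, in the libraries with a leading E alone. Cyp4b1, the most abundant uncalled gene of the list, had a log2 fold change of −0.30 (adjusted p = 0.102, and 0.022 without KO library 3). The other uncalled genes of the list were Cyp4a12a (−0.37), Adh1 (−0.31), Nudt19 (−0.25), Cyp4a12b (−0.08), Cyp7b1 (−0.06), Cyp2j5 (−0.02), Gusb (−0.01), Cyp2j13 (0.04) and Agt (0.12).

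**Figure D3:**
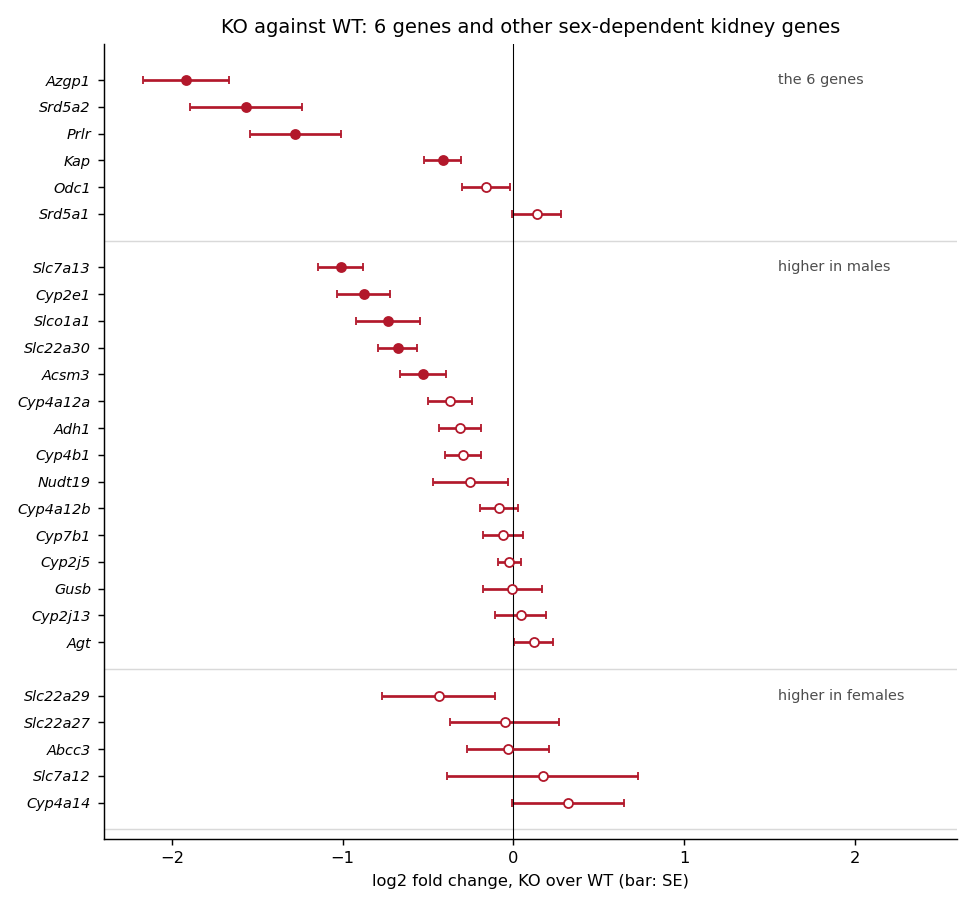
Log2 fold change of KO over WT with its SE (horizontal axis) for the 6 genes, 15 genes known to be higher in male and 5 known to be higher in female mouse kidney (rows); filled points were called at an adjusted p under 0.05. The called genes of the 6 and of the male list all lie left of 0, and no gene of the female list was called.

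Of 5 genes known to be higher in the kidney of female mice, 0 were called in either direction by edgeR, DESeq2 or limma-voom, and 0 had an unadjusted p under 0.05. Their median log2 fold change was −0.03. Cyp4a14, a fatty acid ω-hydroxylase and the most abundant of them, averaged 2124 ± 1092 CPM in KO libraries and 1709 ± 513 CPM in WT libraries (SD, n = 4 each; log2 fold change 0.32, adjusted p = 0.596 in edgeR). In the libraries without a leading E alone it was called higher in KO (0.77, adjusted p = 0.0491). It was at 8.03 CPM in DBA_2J and 6.03 CPM in 129S2_SvPasCrl. The list was mixed in the strains, with 2 other genes of the 5 at least 1 log2 unit above the WT mean in each.

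Odc1 stands at the head of polyamine metabolism, where 3 of 20 tested genes were called higher in KO and 0 lower (edgeR; DESeq2 called 4 higher and 0 lower, limma-voom 3 and 0), beside 6.32% of all genes higher and 4.68% lower. An unadjusted p under 0.05 was reached by 9 of 20, 6 with KO higher and 3 with KO lower, and by 26.0% of all genes. The list's median log2 fold change was 0.09. Without KO 3 the fit called 5 of the list higher, and without WT 4 it called 2 higher and 1 lower. Amd1 and Amd2 share 3197 exon bases, so these 2 of the 20 are not separate measurements. Smox, spermine oxidase, was at 17.8, 18.2, 19.998 and 15.5 CPM in KO libraries 1 to 4 and at 11.5, 11.8, 10.6 and 9.42 CPM in WT libraries 1 to 4. Smox was 1.65-fold higher in KO with no overlap (log2 fold change 0.72, adjusted p = 0.00154). Slc3a2, the heavy chain of several amino acid transporters, rose by 0.60 on the log2 scale (adjusted p = 0.00174). Atp13a3, a polyamine transporter, rose by 0.27 (adjusted p = 0.0306), a call lost without KO 1, KO 2, WT 2, WT 3 or WT 4 (up to 0.0891). Eif5a, the most abundant uncalled gene and the protein that spermidine modifies, was at 0.04 (adjusted p = 0.688).

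Around the reductases, 20 of 30 listed enzymes of steroid metabolism were tested, with 3 called higher, 3 lower and a median log2 fold change of −0.17, beside 6.32% of all genes called higher and 4.68% lower. The 3 lower calls were made in all 8 leave-one-out fits, while the higher calls numbered 1 without KO 1, WT 1 or WT 3 and 0 without KO 2. Hsd17b11, a 17β-hydroxysteroid dehydrogenase of lipid droplets, fell by 0.64 (adjusted p = 0.000368), Akr1c14, a 3α-hydroxysteroid dehydrogenase, by 0.51 (adjusted p = 0.00495), and Hsd11b2, which inactivates glucocorticoids in the distal nephron, by 0.49 (adjusted p = 0.000849). Higher in KO were Srd5a3, which works in dolichol synthesis (0.41, adjusted p = 0.027), Hsd17b7, an enzyme of cholesterol synthesis (0.35, adjusted p = 0.0168), and Hsd17b12, a fatty acid elongation enzyme (0.22, adjusted p = 0.0407). In the libraries with a leading E alone, 1 of these enzymes was called, Hsd11b2, and none of the polyamine genes. The call on Srd5a3 was lost without KO 1, KO 2, WT 1, WT 3 or WT 4 (up to 0.0767), and that on Hsd17b7 without KO 2 (0.0521). For Hsd17b12 it was lost without KO 1, KO 2, KO 4, WT 1, WT 2 or WT 3 (up to 0.115) and with upper quartile scaling (0.0588). Akr1c21, the most abundant uncalled gene, was at −0.37 (adjusted p = 0.105 in edgeR and 0.0457 in DESeq2).

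Downstream of and beside the prolactin receptor, 14 of 15 genes were tested, since Prl itself, the hormone, did not pass the filter on low counts. Of these, 1 was called higher and 2 lower, with a median log2 fold change of 0.10. Over all genes tested 6.32% were called higher and 4.68% lower, so 1 of 14 higher is near the background and is no result about the list. Without KO 4 or WT 1 there were 2 called higher. Stat3, a transcription factor of cytokine signalling, was higher in KO (0.53, adjusted p = 0.00195). Cish, a feedback inhibitor that Stat5 induces (−0.56, adjusted p = 0.0293), and Igf1, a growth factor (−0.69, adjusted p = 0.046), were lower. The call on Cish was lost without KO 1, KO 3, KO 4, WT 1 or WT 3 (up to 0.0844), and that on Igf1 without KO 1, KO 2, KO 4, WT 2 or WT 3 (up to 0.145). With all libraries thinned to the smallest total, Cish (0.0613) and Igf1 (0.0937) were not called, and with a leading E alone 0 of the 14 genes were. Ghr, the growth hormone receptor and the most abundant uncalled gene, was at −0.13 (adjusted p = 0.158).

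**Figure D4:**
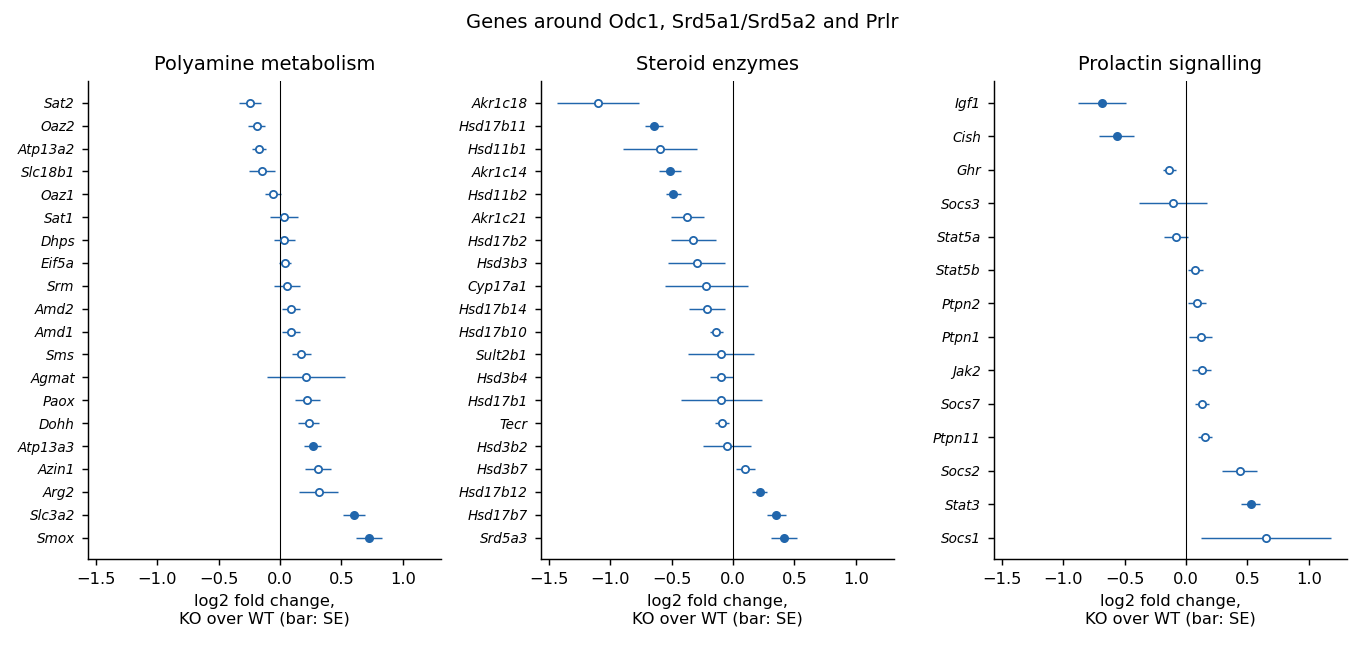
Log2 fold change of KO over WT with its SE (horizontal axes) for tested genes of polyamine metabolism, steroid metabolism and prolactin signalling (rows); filled points were called at an adjusted p under 0.05. Smox and Slc3a2 stand highest among polyamine genes, and the called steroid enzymes fall on both sides of 0.

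The KO and strain values of each gene were set against the same 4 WT libraries and so are not independent. By the size rule for the strains, a log2 difference of 1 or more with a level outside the WT range, DBA_2J was past the rule for 3 of the 6 genes, up for Odc1 and Srd5a2 and down for Azgp1. Over all genes 12.6% were past it in DBA_2J, 4.56% up and 8.07% down. The 129S2_SvPasCrl library was past it for Azgp1 alone, downward, against 9.43% of all genes (3.71% up, 5.72% down). All these shares cover genes that passed the low-count filter on the 8 C57BL/6N libraries. Genes read only in a strain library were left out, so the upward shares may be too low. In the list of 15 genes raised in males, 10 were past the rule upward in DBA_2J and Agt downward, and in 129S2_SvPasCrl 2 were past it, Cyp4a12a and Cyp2j13, both upward. In the list of 5 genes higher in females, 2 were past the rule upward and 1, Cyp4a14, downward in each strain. Median log2 differences over all genes were −0.02 in DBA_2J and 0.00 in 129S2_SvPasCrl after rounding.

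**Figure D5:**
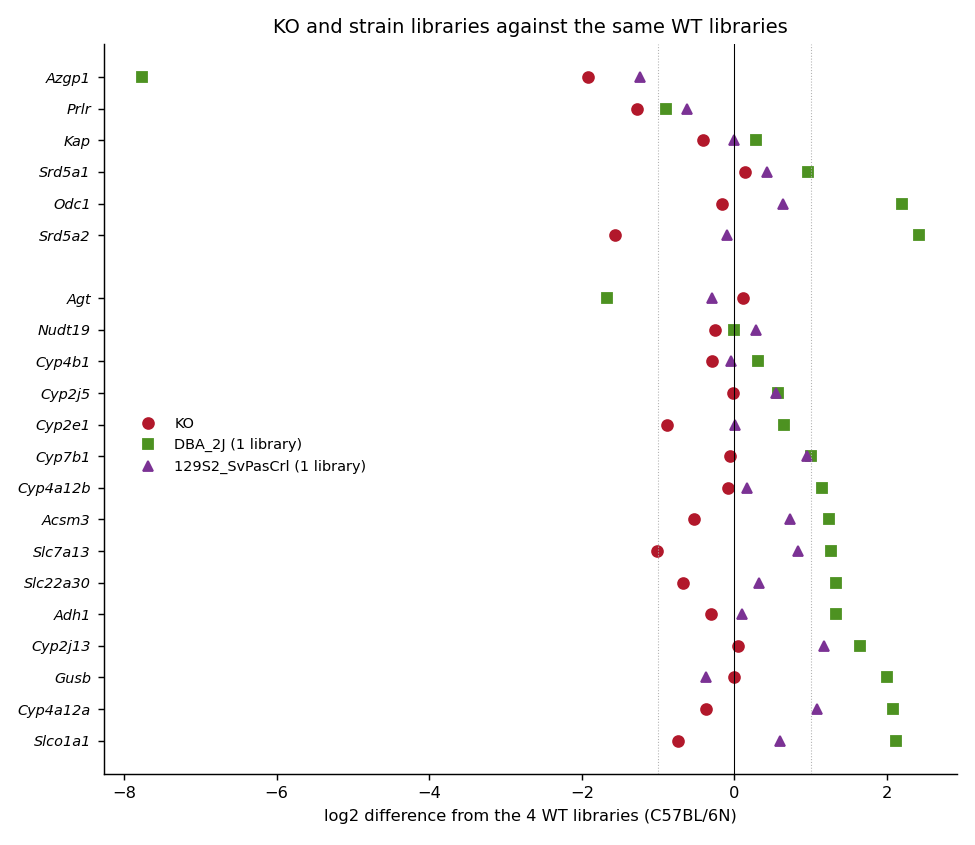
Log2 difference from the 4 WT libraries (horizontal axis) for the 6 genes and 15 genes known to be higher in male mouse kidney (rows), in KO (circles, fold change of the fit), DBA_2J (squares) and 129S2_SvPasCrl (triangles, 1 library each); dotted lines mark −1 and 1. Azgp1 in DBA_2J lies at −7.76, and most genes of the male list lie right of 0 in DBA_2J.

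Genes whose log2 CPM followed a member most closely over the 10 libraries were found among 11292 others with a mean of 5 CPM or more (11293 for Srd5a2, itself under that mean). Libraries share depth, strain and genotype, so these values describe likeness and nothing more. Azgp1 was followed by Slc22a8 (Pearson r = 0.994, and 0.99 over the 8 C57BL/6N libraries), Smtnl2 (0.983) and Hoxb8 (0.981). Kap was followed by Ndufa4 (0.97), Znrf1 (0.962) and Cyp2e1 (0.948), Odc1 by Bet1 (0.988), Atrnl1 (0.987) and Galnt1 (0.98), and Srd5a1 by Ndel1 (0.977), Setdb2 (0.975) and Gcc1 (0.961). Srd5a2 was followed by Stx18 (0.962), Mtmr10 (0.953) and Selenbp2 (0.953), and Prlr by Atp6v1b1 (0.912), Mgat1 (0.911) and Gne (0.905).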

How the data were processed

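Polyadenylated kidney RNA was sequenced in single-end reads on an Illumina sequencer, per the labels' protocols. The submitters' processing notes name STAR, featureCounts, edgeR and mm10 (GRCm38). Raw counts per gene were deposited by the authors; featureCounts 1.5.2 used primary alignments, gave a read that met several genes to each, and set no strand option, per the file headers. The authors also deposited log2 values of 13645 genes, used here only beside the fits. The genes and lists were chosen with earlier results of these data known.

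Counts of the 8 C57BL/6N libraries were filtered by filterByExpr and scaled by TMM in edgeR 4.0.16 under R 4.3.3. Genotype was tested by quasi-likelihood (glmQLFit and glmQLFTest), with Benjamini-Hochberg adjustment across 15547 genes. The SE is the size of the log2 fold change over the square root of F. The biological coefficient of variation was 12.3%. CPM used TMM scaling over all 10 libraries, and strain differences used log2 CPM with a prior count of 2. DESeq2 1.42.0 and limma 3.58.1 (voom) were alternatives. The fit was tested on simulated data. The smallest library held 19.79 M counts. Replicate numbers follow accession order, the series' design text gives 4 animals per genotype, and p-values measure the spread between these libraries.

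Named genes are the 6 genes and the 3 genes most like each of the 6 genes. From each pathway or sex list, up to 5 called genes of smallest p and the most abundant uncalled gene are named. For the male list all uncalled genes are named. Further genes named beside a small count were chosen after their values were seen. Marker lists are given as sums, and markers named with them were chosen after their values were seen. In the prolactin list, 1 gene is not reported here and was left out of that list's counts and median.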

Additional observations from a re-analysis of the deposited data

Results flagged for a closer look

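Within groups of 4 libraries, 56 gene and group pairs were searched for a single library far from the other 3, and 6 were found; chance alone gives about 1 in 20. Among the 6 genes, WT library 4 was far above its group for Odc1 (592 CPM, next highest 383 CPM), and WT library 2 for Srd5a2 (6.98 CPM, next highest 3.30 CPM). In the related lists, KO library 3 was highest for Cyp4b1 (3980 CPM, next 3157 CPM), WT library 4 for Slc22a30 (239 CPM, next 190 CPM), KO library 4 for Ghr (562 CPM, next 534 CPM) and KO library 2 for Cish (13.4 CPM, next 10.7 CPM). The causes were not tested.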

How the results depend on the processing

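Kap, Azgp1, Srd5a2 and Prlr were called in all 11 alternatives of scaling, tool, filter, samples in the fit, covariate and depth, with log2 fold changes of −0.44 to −0.39, −1.97 to −1.89, −1.59 to −1.52 and −1.34 to −1.21; Odc1 (−0.19 to −0.13) and Srd5a1 (0.06 to 0.16) were called in none. Leaving out each library in turn gave −0.48 to −0.31 for Kap (called in 3 of 8 fits), −0.22 to 0.037 for Odc1, the sign turning without WT replicate 4, 610 to 916 genes called higher (982 with all libraries) and 381 to 722 lower (728 with all). With title forms fitted alone (2 KO and 2 WT libraries), a leading E gave 92 genes higher and 51 lower, Kap −0.45, Srd5a2 −0.86 and Prlr −1.30, none of these 3 called, and turned Cyp4a14 to −0.44 and Eif5a to −0.012; without a leading E, Odc1 was 0.020 and Srd5a1 −0.12, both turned in sign. Kap, Azgp1, Srd5a2 and Prlr kept their calls without a leading E. Fewer samples were fitted for both forms, and the cause of these differences was not tested further. The difference of Kap between DBA_2J and WT was 0.21 with library totals alone. No paired analysis was possible because the labels give no shared replicate numbers and those used here only name the libraries. In the C57BL/6N libraries Srd5a2 and Prlr had the fewest reads of the 6 genes, with 44 (in KO 1, a deep library) and 110 (in WT 1, the shallowest) in their lowest libraries, so counting error bears on their values. It bears also on Azgp1 in DBA_2J, with 35 reads.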
